A study of Mus musculus with 9 samples.

Results

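The 8 genes described here, Tff1, Tff2, Muc5ac, Muc6, Gkn1, Gkn2, Pgc and Sox2, are genes of the gastric epithelium, picked by symbol from the 50600 gene rows of a mouse RNA-seq count table and its companion table of TPM (reads per transcript length, scaled to a common total). They were followed across 9 libraries in 3 groups of 3, made from intestinal organoids and from tumoroids, the organoid-like cultures grown from intestinal tumours. The organoids were WT small intestinal cells of mice given as C57BL/6, although the study's methods describe a mixed background for every mouse. They were kept for 24 h in conditioned medium mixed with fresh organoid medium. The tumoroids were untreated cultures of intestinal tumour cells from Apc1638N/+ mice of a strain labelled MIX, which carry 1 mutant copy of the Wnt pathway gene Apc.

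The titles and the treatment field of the 6 organoid libraries name opposite media. The groups are named here by the titles, as T-cM-titled (medium from tumoroids) and WT-cM-titled (medium from organoids), and every direction between them would turn around under the treatment field. Tumoroids were compared with the mean of both organoid groups, which is the same under either label. The 3 replicates of a group came from different mice. By its methods, the study left out periampullary tumours to keep stomach cells out of the cultures. It took tumours from older mice than those used for organoids, and grew tumoroids without R-spondin, which the organoids received. Genotype, strain as labelled, animal age, tumour origin and medium therefore cannot be told apart in this comparison.

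In the stomach, surface (pit) cells secrete the mucin Muc5ac with the trefoil peptide Tff1 and the gastrokines Gkn1 and Gkn2, whereas mucous cells deeper in the glands secrete Muc6 with Tff2. Chief cells store the pepsinogen encoded by Pgc, and Sox2 is a transcription factor of the foregut and stomach. The intestinal counterparts are Muc2 and Tff3 of goblet cells and the transcription factors Cdx1 and Cdx2, which specify intestinal fate.

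The genes lie in family clusters (GRCm38, Gencode vM21 gene bounds). On chromosome 7, Muc6 (chr7:141633456-141655319, minus strand) is followed by Muc2 at a distance of 35.0 kb, by Muc5ac (chr7:141788972-141819231, plus strand) 34.3 kb beyond Muc2, and by Muc5b after another 19.8 kb. On chromosome 17, Tff1 (chr17:31161395-31165277, minus strand) and Tff2 (chr17:31141049-31144282, minus strand) are 17.1 kb apart, with Tff3 11.4 kb from Tff2. Gkn1 (chr6:87345650-87350942, minus strand) and Gkn2 (chr6:87373357-87379497, plus strand) are separated by 22.4 kb on chromosome 6. Pgc (chr17:47726842-47734482, plus strand) and Sox2 (chr3:34650405-34652461, plus strand) stand alone.

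RefSeq promoter windows (GRCm38.p6, 250 bases before to 50 after the start, 5′ to 3′ on the gene's strand) were at hand for 5 of the 8 genes. Shown are Muc6 and its intestinal neighbour Muc2, which moved in opposite directions, then Sox2, which went from no reads to its highest level in 1 tumoroid line, and Pgc, which did not pass the test. Capitals mark matches to any of 6 motifs, searched on both strands. The TATA box was searched as TATAAA and the site of TEAD factors as GGAATG. The AP-1 site was searched as TGANTCA and the site of GATA factors as AGATAA. The TCF/LEF site was searched as CTTTGAT and the site of CDX factors as TTTATG.
Muc6, chr7:141655344-141655643, minus strand: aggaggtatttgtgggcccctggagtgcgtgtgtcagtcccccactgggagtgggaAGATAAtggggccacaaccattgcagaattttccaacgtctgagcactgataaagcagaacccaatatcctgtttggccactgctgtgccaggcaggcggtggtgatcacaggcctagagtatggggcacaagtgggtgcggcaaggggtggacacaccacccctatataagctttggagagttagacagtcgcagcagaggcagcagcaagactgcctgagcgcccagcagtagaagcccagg
Muc2, chr7:141690090-141690389, plus strand: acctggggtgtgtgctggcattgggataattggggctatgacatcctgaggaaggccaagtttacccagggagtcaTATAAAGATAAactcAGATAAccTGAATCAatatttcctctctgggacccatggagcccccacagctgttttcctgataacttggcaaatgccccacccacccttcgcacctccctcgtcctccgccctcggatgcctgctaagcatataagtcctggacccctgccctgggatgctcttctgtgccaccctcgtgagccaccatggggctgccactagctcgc
Sox2, chr3:34649745-34650044, plus strand: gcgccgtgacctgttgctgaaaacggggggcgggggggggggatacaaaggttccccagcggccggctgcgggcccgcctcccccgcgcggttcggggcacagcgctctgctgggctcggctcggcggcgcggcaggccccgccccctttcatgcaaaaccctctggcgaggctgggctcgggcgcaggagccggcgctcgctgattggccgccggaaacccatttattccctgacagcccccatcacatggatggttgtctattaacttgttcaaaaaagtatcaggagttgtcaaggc
Pgc, chr17:47726592-47726891, plus strand: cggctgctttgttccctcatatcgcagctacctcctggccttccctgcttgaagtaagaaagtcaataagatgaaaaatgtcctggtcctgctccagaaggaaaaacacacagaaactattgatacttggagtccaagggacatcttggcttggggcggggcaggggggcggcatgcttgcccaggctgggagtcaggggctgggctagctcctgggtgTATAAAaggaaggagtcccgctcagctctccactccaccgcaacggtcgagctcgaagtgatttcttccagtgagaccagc
The Muc6 window held 1 GATA match, starting at position -194 from the start, and the Muc2 window held GATA matches at -169 and -159, the first of which overlaps a TATAAA match at -174, and an AP-1 match at -151. The Pgc window held TATAAA at -31, and the Sox2 window held none of the 6 motifs. Among 32851 promoter windows, 13.6% held TATAAA, 14.7% the TEAD, 7.81% the AP-1, 11.2% the GATA, 3.73% the TCF/LEF and 11.9% the CDX letters. The Sox2 window was 66.3% G and C, above the median of 52.7% over all windows, and those of Muc6, Muc2 and Pgc stood between 55.0% and 56.7%. A match is a description of letters only. RefSeq starts can differ from the Gencode bounds, and the Sox2 window ends before the Gencode gene start.

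Library totals ranged from 16541635 to 25170966 counts, so that 3 counts in a library, used here as the detection floor, corresponded to 0.103 to 0.204 CPM (counts scaled to a common library total with TMM factors). Epithelial markers were read at high levels in every culture, some of them lower in tumoroids. Cdx2 stood at 186 ± 16.9 CPM (SD, n = 6) in organoids and 141 ± 58.0 CPM (SD, n = 3) in tumoroids, and 7 pan-epithelial genes summed to 9730 to 12000 CPM in organoids and 6820 to 7650 CPM in tumoroids. These levels depended on the scale. Cdx2 averaged 202 ± 22.9 TPM (SD, n = 6) in organoids and 219 ± 84.6 TPM (SD, n = 3) in tumoroids. By mean TPM, Epcam, Cdh1, Krt18 and Cldn7 were higher in tumoroids, and Krt8, Krt19 and Vil1 were lower. Of these 7 genes, by the test on counts, Krt18 was called higher in tumoroids, and Krt19 and the brush border gene Vil1 were called lower, Vil1 at 316 ± 8.79 CPM (SD, n = 3) against 1400 ± 154 CPM (SD, n = 6). Replicates of a group differed from each other in the counts of 18325 to 21156 genes.

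Across the members, the plainest difference was that Muc5ac, Muc6 and Sox2 had no read in any of the 6 organoid libraries and were read in all 3 tumoroid libraries. Tff2 was also higher in tumoroids, in 2 of 3 libraries, whereas Tff1 went the other way and was nearly absent from tumoroids. By the edgeR quasi-likelihood test over all genes, with a call at an adjusted p (Benjamini-Hochberg) under 0.05 and a log2 fold change beyond 1, 4 members were higher and 1 was lower in tumoroids. Of all 16208 tested genes, 21% were called higher and 12.1% lower, or 3400 and 1963 genes, which became 4174 and 1143 with limma on log2(TPM + 1) and 5131 and 1402 on log2(TPM + 0.1). Of the 8 members, 7 passed the filter of 1 TPM in at least 1 library, 5 of them only through the tumoroids, so that a tumoroid difference was built into their passing. In bulk RNA, more cells of a type and more RNA per cell cannot be told apart.

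**Figure D1:**
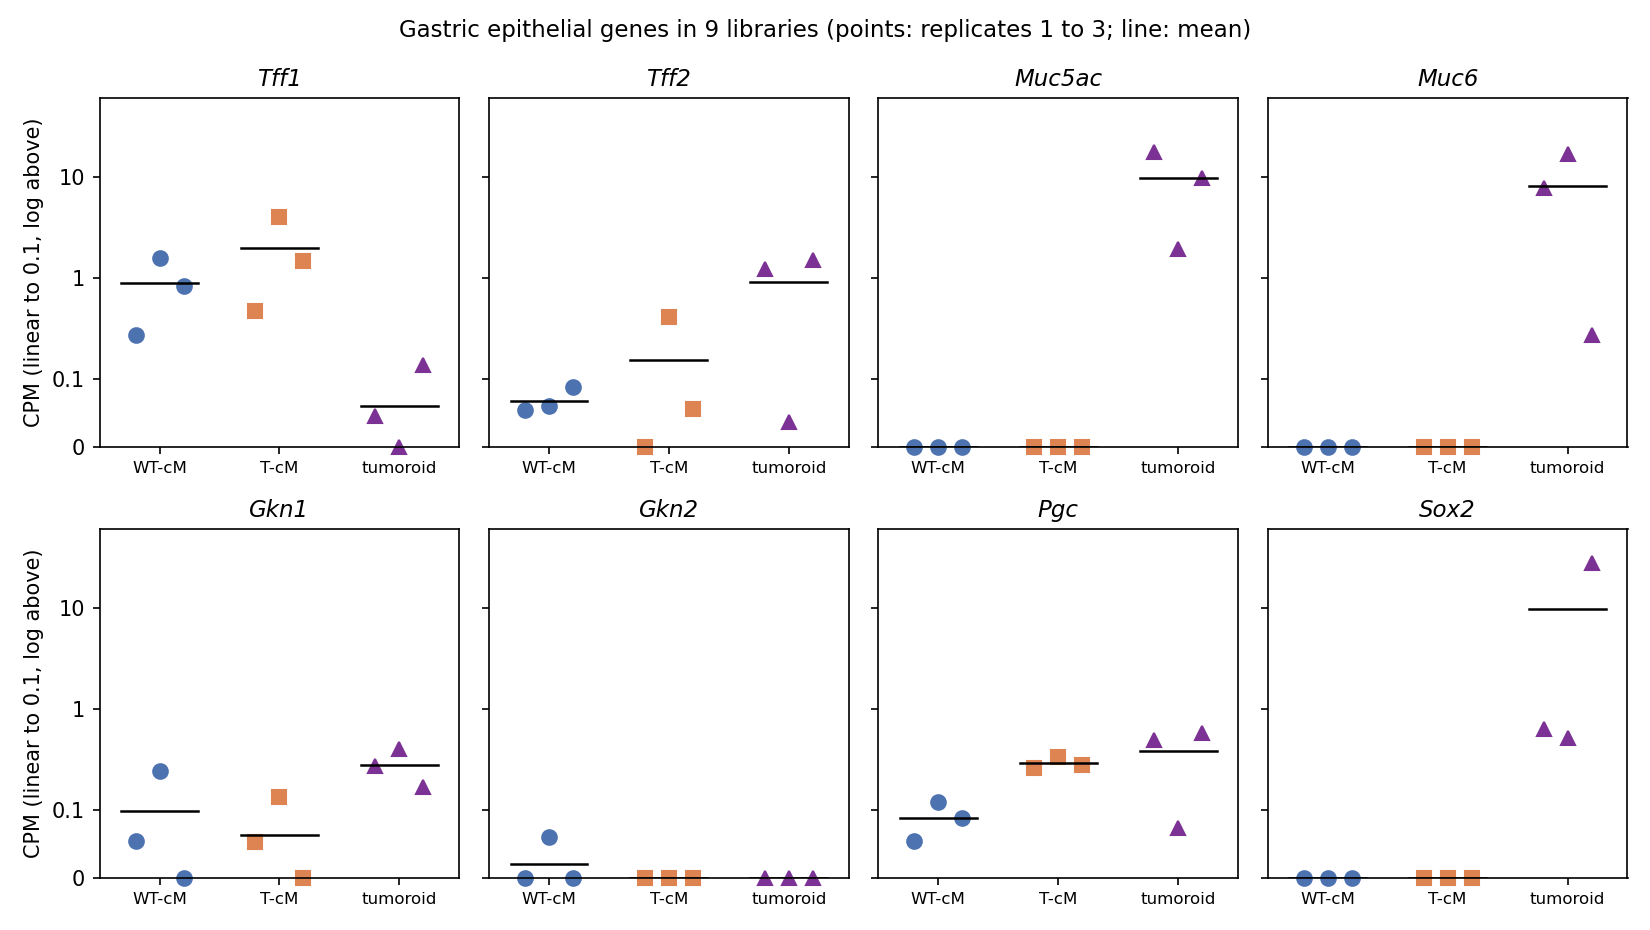
CPM (vertical axis, linear up to 0.1 and logarithmic above) of each of the 8 genes in the 3 WT-cM-titled organoid, 3 T-cM-titled organoid and 3 tumoroid libraries, each point a library (replicates 1 to 3 from left to right) and each line the group mean. Muc5ac, Muc6 and Sox2 lie at 0 in all 6 organoid libraries and at 0.275 CPM or more in all 3 tumoroid libraries, and Tff1 is higher in all 6 organoid libraries than in any tumoroid library.

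Muc5ac (ENSMUSG00000037974.16), the gel-forming mucin of the stomach surface, had 0 reads in all 6 organoid libraries and 388, 52 and 283 reads in tumoroids 1, 2 and 3. These were 17.6, 1.93 and 9.72 CPM, and tumoroids averaged 9.75 ± 7.83 CPM (SD, n = 3). Every tumoroid library was above every organoid library, tumoroid 2 the least. Against a floor of 3 counts per organoid library, Muc5ac was at least 57.8-fold higher in the mean tumoroid and at least 11.5-fold higher in tumoroid 2 (edgeR adjusted p = 7.3e-04).

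Muc6 (ENSMUSG00000048191.15), the gland mucin, also had 0 reads in the 6 organoid libraries, and 169, 447 and 8 reads in tumoroids 1, 2 and 3, or 7.66, 16.6 and 0.275 CPM. The groups did not overlap, but the tumoroid libraries differed among themselves by 60.5-fold, and tumoroid 3 sat close to the detection floor. Muc6 was at least 48.6-fold higher in the mean tumoroid and at least 98.6-fold higher in tumoroid 2, but only at least 1.63-fold higher in tumoroid 3 (edgeR adjusted p = 0.0042). The order of the tumoroids was not the one seen for Muc5ac, which was highest in tumoroid 1 and lowest in tumoroid 2, with a 9.09-fold spread.

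The make-up of the gel-forming mucin transcripts differed between the cultures. Levels are per length here, as the authors' TPM. In all 6 organoid libraries Muc2 made up 100% of the TPM summed over Muc2, Muc5ac, Muc6 and Muc5b, and in tumoroids 1, 2 and 3 it made up 38.7%, 24.7% and 55.1%. Muc5ac took 40.7%, 6.92% and 43.1% of the mucin TPM of these tumoroids, and Muc6 took 20.4%, 68.4% and 1.46%. Tumoroid 2 was thus the one in which Muc6 prevailed, while in tumoroid 3 nearly all of the mucin TPM outside Muc2 was Muc5ac. Muc2 itself was lower in tumoroids, at 7.96 ± 3.25 CPM (SD, n = 3) against 51.2 ± 8.23 CPM (SD, n = 6) in organoids (log2 fold change -2.69, SE 0.29, edgeR adjusted p = 5.7e-05). Muc5b, the airway mucin at the end of the cluster, had 0 to 3 reads per library.

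**Figure D2:**
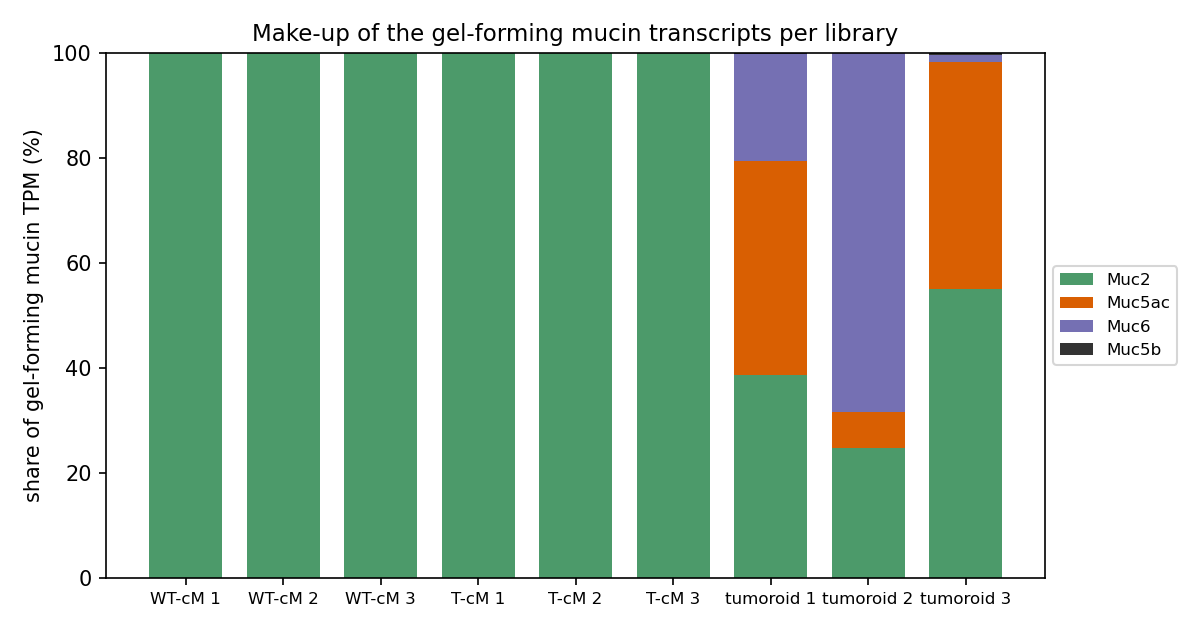
Share (vertical axis, % of the TPM summed over 4 gel-forming mucin genes) of Muc2, Muc5ac, Muc6 and Muc5b in each of the 9 libraries (bars). Muc2 fills the bars of all 6 organoid libraries and between 24.7% and 55.1% of those of the tumoroids, where the rest is Muc5ac or Muc6 in differing parts.

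Tff1 (ENSMUSG00000024032.6), the trefoil peptide that accompanies Muc5ac in the stomach, did not follow it. It had 9, 59 and 26 reads in T-cM-titled libraries 1, 2 and 3, and 5, 26 and 19 reads in WT-cM-titled libraries 1, 2 and 3, against 1, 0 and 4 reads in the tumoroids. The highest tumoroid value, 0.137 CPM, was below the lowest organoid value, 0.275 CPM. Tff1 averaged 0.0609 ± 0.07 CPM (SD, n = 3) in tumoroids and 1.44 ± 1.36 CPM (SD, n = 6) in organoids, with a log2 fold change of -4.27 (SE 1.07, edgeR adjusted p = 0.0079). The annotated antisense gene Gm15318 overlaps Tff1 on the other strand. It had 0 to 4 reads per library, and the strand setting of the count is not given in the sources used here, so that reads of the pair cannot be told apart.

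Tff2 (ENSMUSG00000024028.7), the trefoil peptide of gland mucous cells, had 0, 6 and 1 reads in T-cM-titled and 1, 1 and 2 reads in WT-cM-titled libraries 1, 2 and 3, and 27, 1 and 44 reads in tumoroids 1, 2 and 3. Tumoroids 1 and 3 were above all organoid libraries, whereas tumoroid 2, with the highest Muc6, lay among them at 0.0372 CPM. Tff2 averaged 0.924 ± 0.781 CPM (SD, n = 3) in tumoroids and 0.111 ± 0.148 CPM (SD, n = 6) in organoids (log2 fold change 3.12, SE 1.02, edgeR adjusted p = 0.028). This call was lost in 11 of 20 alternative analyses, with adjusted p from 0.0042 to 0.13 over all of them, among them the analyses without tumoroid 1 (adjusted p = 0.075) and without tumoroid 3 (adjusted p = 0.091), and those without WT-cM-titled library 1, 2 or 3 or T-cM-titled library 3 (adjusted p from 0.054 to 0.062). Tff3, the trefoil peptide of goblet cells, remained 99.2% to 99.9% of the trefoil TPM in each tumoroid, although it fell from 516 ± 51.2 CPM (SD, n = 6) in organoids to 135 ± 84.5 CPM (SD, n = 3) in tumoroids (log2 fold change -1.93, SE 0.44, edgeR adjusted p = 0.0048).

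The gastrokines were barely read. Gkn1 (ENSMUSG00000030050.4), a secreted protein of pit cells, had 1, 2 and 0 reads in T-cM-titled, 1, 4 and 0 reads in WT-cM-titled and 6, 11 and 5 reads in tumoroid libraries 1, 2 and 3. The tumoroids had more reads than any organoid library, but as CPM the lowest tumoroid, 0.172, overlapped the highest organoid library, 0.243. The difference did not pass the test (log2 fold change 1.85, SE 0.89, edgeR adjusted p = 0.11), though it did without WT-cM-titled library 2 (adjusted p = 0.043). Gkn2 (ENSMUSG00000030049.5) had 1 read in all 9 libraries together, in WT-cM-titled library 2, and was not tested. A level under 3 reads was not detectable at this depth. Gkn3, a gastrokine gene that is not among the 8, had 21 reads over the 6 organoid libraries and 41 over the tumoroids (log2 fold change 1.45, SE 0.93, edgeR adjusted p = 0.23).

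Pgc (ENSMUSG00000023987.14), the progastricsin of chief cells, had 5 reads in each T-cM-titled library, 1, 2 and 2 reads in the WT-cM-titled libraries and 11, 2 and 17 reads in tumoroids 1, 2 and 3. Tumoroids 1 and 3 were above the organoids and tumoroid 2 was among them, at 0.0744 CPM. Tumoroids averaged 0.386 ± 0.273 CPM (SD, n = 3) and organoids 0.192 ± 0.118 CPM (SD, n = 6), a difference that did not pass the test (log2 fold change 1.22, SE 0.63, edgeR adjusted p = 0.14) unless tumoroid 2 was left out (log2 fold change 1.69, adjusted p = 0.021).

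Sox2 (ENSMUSG00000074637.7), the foregut transcription factor, had 0 reads in the 6 organoid libraries, 14 and 14 reads in tumoroids 1 and 2, and 812 reads in tumoroid 3. In CPM these were 0.634, 0.521 and 27.9. All 3 tumoroids were above all organoid libraries, but tumoroid 3 carried nearly all of the reads and was 53.6-fold above tumoroid 2. Against the floor, Sox2 was at least 3.76-fold higher in tumoroid 1, at least 3.09-fold higher in tumoroid 2 and at least 165-fold higher in tumoroid 3, and at least 57.4-fold higher in the mean (edgeR adjusted p = 0.01). The call held without tumoroid 3 (edgeR adjusted p = 0.0037), which takes the mean down to the level of the other 2. Sox2 lies inside the non-coding gene Sox2ot on the same strand. Sox2ot had 0 reads in all organoid libraries and 1, 0 and 7 reads in tumoroids 1, 2 and 3.

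Separation of all 3 tumoroids from all 6 organoid libraries was seen for 3 members upward (Muc5ac, Muc6 and Sox2) and for 1 downward (Tff1), while the ranges of Tff2, Gkn1 and Pgc overlapped. Of all tested genes, 25.6% were separated upward and 20.2% downward.

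Per length, the order of the members was different in tumoroids and organoids. In tumoroids the median TPM was 6.86 for Tff2, 3.24 for Muc5ac, 2.68 for Muc6, 1.18 for Pgc, 1.01 for Sox2, 0.71 for Gkn1, 0.31 for Tff1 and 0 for Gkn2, and the ranges of each pair of neighbours in this order overlapped. Sox2 had the widest range, 0.94 to 48.53 TPM, and its value in tumoroid 3 was the highest of any member in any library. In organoids Tff1 led with a median of 5.66 TPM (range 1.51 to 20.6), which did not overlap the next gene, Pgc, at 0.345 TPM, but did overlap Tff2, which reached 1.72 TPM. Tff2 and Gkn1 followed with 0.25 and 0.115 TPM, and the other 4 genes had a median of 0. For scale, Tff3 had a median of 1260 TPM in tumoroids.

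All 3 tumoroid lines carried reads of Muc5ac, Muc6 and Sox2, at differing levels, with Muc5ac highest in tumoroid 1, Muc6 in tumoroid 2 and Sox2 in tumoroid 3. Genes of the squamous epithelium that lines the mouse forestomach were also uneven between these lines. Krt14, a keratin of the basal layer, had 14.7, 3.98 and 204 CPM in tumoroids 1, 2 and 3 and at most 0.339 CPM in organoids (log2 fold change 9.19, SE 1.22, edgeR adjusted p = 2.1e-04). Trp63, the master regulator of stratified epithelia, had 0.317, 0.112 and 36.6 CPM (log2 fold change 8.32, SE 1.71, edgeR adjusted p = 0.0028). It had at most 1 read per organoid library and 3 reads in tumoroid 2, so that the size of this fold is uncertain. Krt5, the partner of Krt14, had 0.589, 0.372 and 17.4 CPM. Trp63 and Krt5 were highest in tumoroid 3, as Sox2 was. Krt4, a keratin of the suprabasal layers, was instead close to even, with 43.8, 35.5 and 59.8 CPM (log2 fold change 7.76, SE 0.38). Of the 6 genes on this list, 4 of 5 tested were called higher, with 3 calls left without tumoroid 3 and 2 with limma voom or DESeq2. All 5 were under 1 TPM in every organoid library and passed the filter only through the tumoroids, so that, as for the members, a difference was built into the count, beside 21% of all tested genes called higher. Their summed level was 0.354 to 1.02 CPM in organoids and 40.0 to 319 CPM in tumoroids, and Krt13 had at most 1 read per library. The part of squamous cells in the Sox2 result was not tested.

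**Figure D3:**
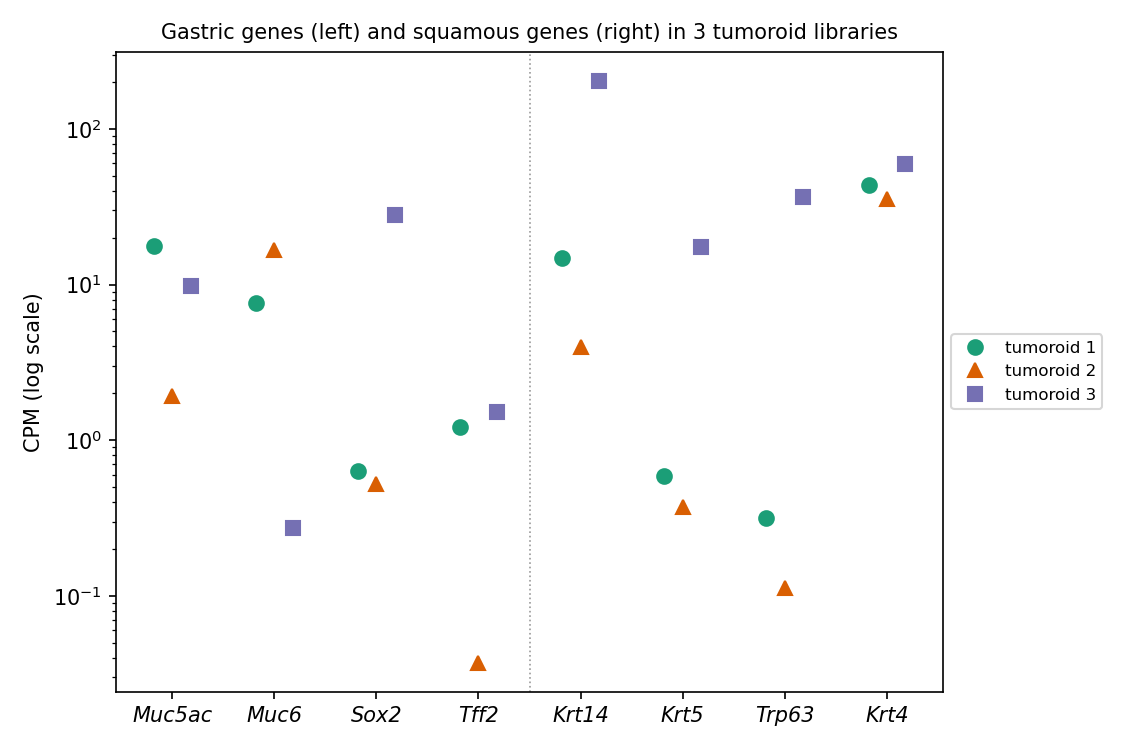
CPM (vertical axis, log scale) of 4 members (left of the dotted line) and 4 squamous epithelial genes (right) in tumoroid libraries 1, 2 and 3, each point a library. Sox2, Krt14, Krt5 and Trp63 are highest in tumoroid 3, where Muc6 is lowest.

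Markers of cells outside the epithelium were checked in the same libraries. The summed level of 10 fibroblast and muscle genes was 0.678 to 1.69 CPM in organoids and 2.57 to 48.6 CPM in tumoroids. Acta2, smooth muscle actin, was called higher (log2 fold change 6.62, SE 1.08, edgeR adjusted p = 7.1e-04). It had 4.03, 1.86 and 46.0 CPM in tumoroids 1, 2 and 3, and so was highest where Sox2 was highest. Col3a1 and Lum were at 0 in every library. Pdgfrb, the other gene of this list that was tested, had 0.181, 0.112 and 1.79 CPM in tumoroids 1, 2 and 3 and 0.451 to 1.16 CPM in organoids and did not pass the test (log2 fold change -0.01, SE 0.80, edgeR adjusted p = 1). The sum of 4 immune genes was 4.18 to 7.05 CPM in organoids and 40.8 to 199 CPM in tumoroids, with Cd14 at 194 CPM in tumoroid 3 and Cd3e at 0 everywhere. Cd14 was called higher (log2 fold change 4.56, SE 0.58, edgeR adjusted p = 1.5e-04). Csf1r, at 2.72, 20.4 and 4.50 CPM in tumoroids 1, 2 and 3, was called higher (log2 fold change 2.66, SE 0.78, edgeR adjusted p = 0.017) and was highest in tumoroid 2, where Muc6 was highest. Ptprc, the pan-leukocyte marker, had 0.181, 0.706 and 0.206 CPM in tumoroids 1, 2 and 3 and 0 to 0.902 CPM in organoids. The 4 endothelial genes summed to 0.475 to 1.15 CPM in organoids and 1.15 to 4.22 CPM in tumoroids. Vwf stood at 0.93 to 2.72 CPM in tumoroids. Cdh5 had no organoid read and 1 to 54 reads in tumoroids, with 1.85 CPM in tumoroid 3, and was called higher (edgeR adjusted p = 0.036). Pecam1 was at 0.172 to 0.227 CPM in tumoroids and 0.407 to 1.06 CPM in organoids, and Kdr was at 0. Of 7 pancreatic acinar genes, Ctrb1 was lower in tumoroids, at 0 to 0.137 CPM against 7.8 to 21 CPM in organoids (log2 fold change -7.10, SE 0.70, edgeR adjusted p = 3.3e-05). Prss2 had no read in organoids and at most 0.297 CPM in tumoroids and did not pass the test, Cpa1 and Cela2a had reads in tumoroid 2 alone, and Cela3b and Pnlip were at 0 everywhere. The part of any of these cells in the results was not tested.

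Genes that other gastric cell types use did not move one way. In 6 further lists with 31 genes, 25 were tested, of which 9 were called higher, 6 lower and 10 neither, beside 21% higher and 12.1% lower among all tested genes. Of these, Vsig1, Aqp5, Gif, Kcne2, Hdc and Sox21, all called higher, lay under 1 TPM in every organoid library. They passed the filter only through the tumoroids. Cldn18, Pga5 and Esrrg, all called lower, lay under 1 TPM in every tumoroid library and passed only through the organoids. A difference was thus built into the count for these genes. Among 8 pit cell genes, 3 were higher and 3 lower. The protease Ctse rose from 2.42 to 10.2 CPM in organoids to 42.6, 49.3 and 190 CPM in tumoroids 1, 2 and 3 (log2 fold change 4.11, SE 0.57, edgeR adjusted p = 2.8e-04), and the cell adhesion protein Vsig1 rose too (log2 fold change 4.82, SE 0.88). Anxa10, an annexin of the gastric surface, fell from 86.9 to 178 CPM in organoids to 1.54, 0.632 and 12.3 CPM (log2 fold change -4.73, SE 0.86, edgeR adjusted p = 0.0014), and the calpain Capn9 fell by 2.95 on the log2 scale. Psca was the remaining gene that rose and Cldn18, a gastric claudin, the remaining gene that fell.

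Among the 4 gland mucous and isthmus genes, the water channel Aqp5 stood out, with 1 read over the 6 organoid libraries and 2.31, 10.9 and 9.24 CPM in tumoroids 1, 2 and 3 (log2 fold change 9.29, SE 0.86, edgeR adjusted p = 8.3e-05). With the organoids under the detection floor, the size of this fold is uncertain. Bhlha15, a transcription factor of secretory cells, was lower (log2 fold change -1.79, SE 0.53), and A4gnt, the enzyme that makes the glycan carried by Muc6, did not pass the test (log2 fold change -1.34, SE 0.70, edgeR adjusted p = 0.14). The calls on this list went from 1 to 2 upward without tumoroid 2 and from 1 to 2 downward without tumoroid 3. Of the chief cell genes, the intrinsic factor gene Gif had 0 reads in organoids and 0.816, 0 and 1.92 CPM in tumoroids 1, 2 and 3. It was called higher (edgeR adjusted p = 0.021), a call that was lost without tumoroid 1 or without tumoroid 3. Pga5, another pepsinogen gene, was at 0 in all tumoroids and at least 5.65-fold higher in organoids (edgeR adjusted p = 0.0017). Lipf and Chia1 were too low to be tested.

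Parietal cell genes were mostly low. Atp4a, the catalytic subunit of the proton pump, did not pass it (log2 fold change 0.30, SE 0.43, edgeR adjusted p = 0.6), and Atp4b, Slc26a7 and Hrh2 had at most 1 read per library and were not tested. The potassium channel subunit Kcne2 was called higher at 0.0906 to 0.781 CPM against no read in organoids. It had 2, 21 and 10 reads in tumoroids 1, 2 and 3, the first under the detection floor, and was at least 2.4-fold higher in the mean. The nuclear receptor Esrrg was lower (log2 fold change -4.08, SE 0.82). Among endocrine genes, Hdc, which makes histamine in enterochromaffin-like cells, was higher, with 17.9, 4.31 and 4.12 CPM in tumoroids 1, 2 and 3 and at most 0.385 CPM in organoids (log2 fold change 5.42, SE 0.62, edgeR adjusted p = 8.3e-05), and Ghrl and Gast did not pass the test. Of 5 further foregut and gastric transcription factors, Sox21, a relative of Sox2, rose to 37.3, 40.7 and 152 CPM from at most 0.846 CPM (log2 fold change 8.01, SE 0.73, edgeR adjusted p = 2.2e-05), and Foxq1 rose by a log2 fold change of 2.55 (SE 0.27). Sox21 was highest in tumoroid 3, as were Sox2, Ctse and Psca, and a link among them was not tested. Nkx6-3 had reads in tumoroid 1 alone among the tumoroids, at 21.3 CPM, and Pdx1 and Nkx6-3 did not pass the test.

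**Figure D4:**
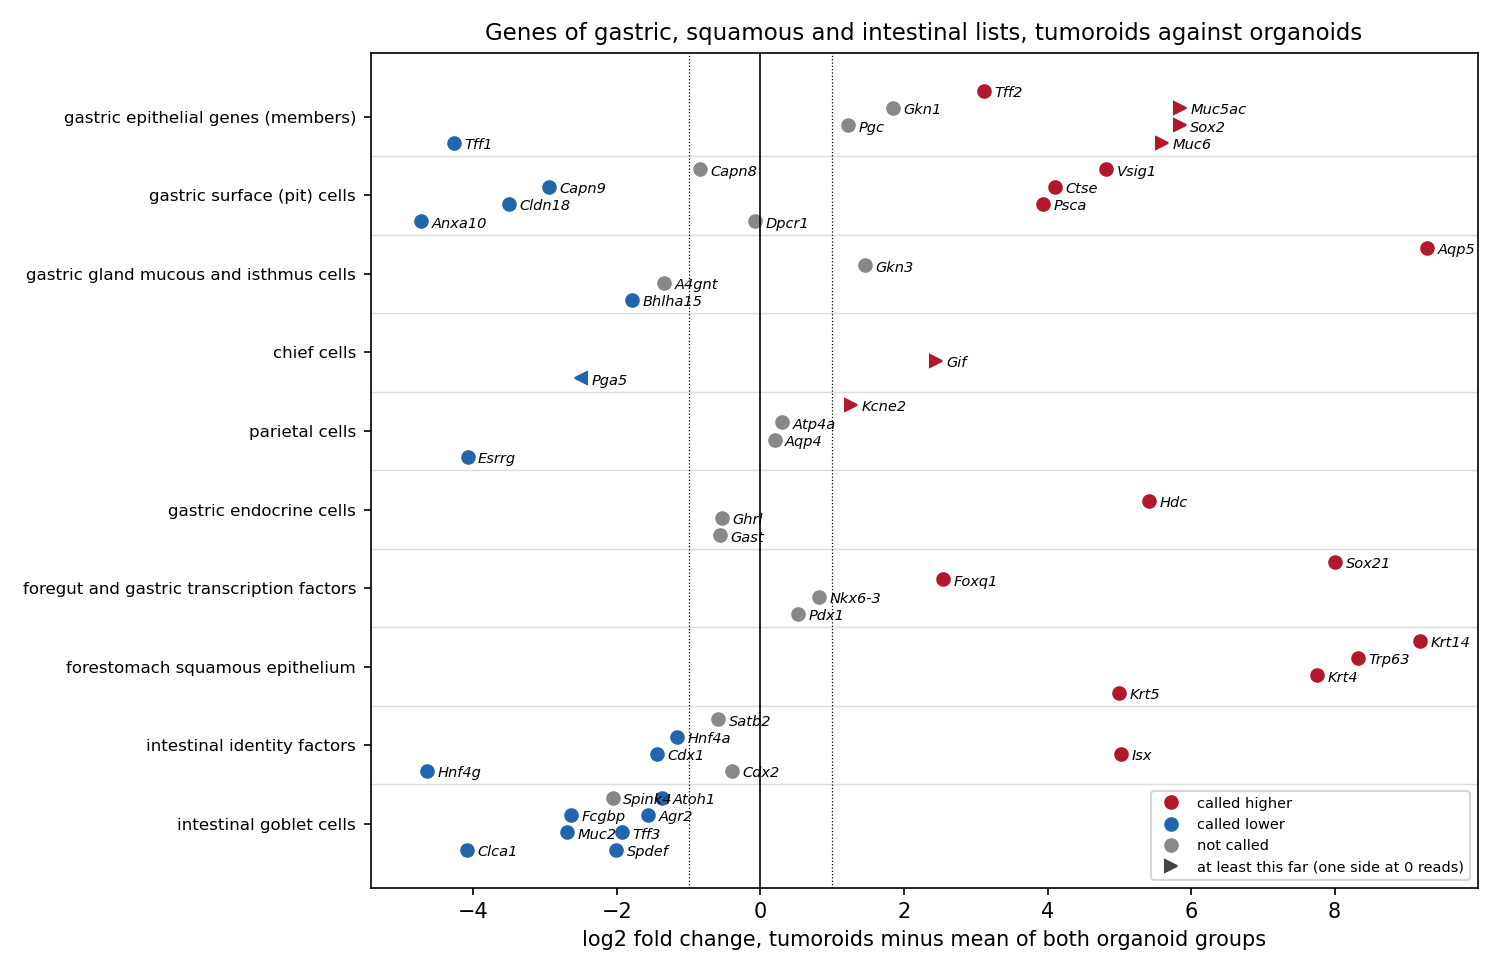
Log2 fold change of tumoroids against the mean of both organoid groups (horizontal axis) for the tested genes of 10 lists (rows), each point a gene, with triangles for the least change where 1 side had no reads and dotted lines at 1 and -1. Krtdap, close to the detection floor, is left out. The pit, gland, chief, parietal and endocrine cell lists hold genes on both sides of 0, the foregut transcription factors and squamous genes lie above it, and 7 of 8 goblet cell genes are called lower.

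Most of the listed intestinal genes were lower in tumoroids. Of 8 goblet cell genes, 7 were called lower and 0 higher, and of 6 intestinal identity factors, 3 were called lower and 1 higher, beside 12.1% lower and 21% higher among all tested genes. The goblet cell genes that were lower included Fcgbp (log2 fold change -2.64, SE 0.24), Clca1 (log2 fold change -4.09, SE 0.55) and the goblet cell regulator Spdef (log2 fold change -2.01, SE 0.35). Cdx1 was lower, with 117, 32.1 and 28.8 CPM in tumoroids 1, 2 and 3 against 142 to 183 CPM in organoids (log2 fold change -1.44, SE 0.42, edgeR adjusted p = 0.017), while Cdx2 did not pass the test, at 188, 159 and 76.7 CPM in these tumoroids. Cdx2 was lowest in tumoroid 3, where Sox2 was highest, which rests on 1 library, and a link between them was not tested. Hnf4g (log2 fold change -4.65, SE 0.39) and Hnf4a (log2 fold change -1.16, SE 0.21) were the others that were lower, and Isx was higher, at 1.04 to 3.40 CPM.

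Other genes near the members were read against the shares of all tested genes, 21% higher and 12.1% lower. Within 250 kb of Muc5ac and Muc6, 2 of 18 other tested genes were called higher and 3 lower, the latter including Muc2, which lies between them. Around Tff1 and Tff2, 2 of 5 were higher and 2 lower, among them Tff3. Around the gastrokines 1 of 3 was higher, and around Pgc 1 of 11. No other gene near Sox2 was tested.

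The genes whose pattern over the 9 libraries was most like that of each member were taken by the smallest root mean square difference of centred log2 CPM, and nothing is said of shared control. For Sox2 they were Vcam1 (0.238 log2 units), Slpi (0.319) and Pglyrp3 (0.473). All 3 had no organoid read and were highest in tumoroid 3, at 16.6 to 21.3 CPM. For Muc5ac they were Clec2f (0.375), C1s1 (0.521) and Ecscr (0.579). For Muc6 they were the acute phase gene Saa3 (0.526), Igfbp2 (0.54) and Neb (0.64), which shared its order of tumoroids 2, 1 and 3. Tff2 was closest to Ptpro (0.39), 2810404F17Rik (0.412) and Gm12886 (0.522), and Tff1 to Cubn (0.604), Gm12223 (0.621) and the pepsinogen gene Pga5 (0.633), one of the listed chief cell genes. Gkn1 was closest to Vgll3 (0.377), Igip (0.405) and Gm37584 (0.424), and Pgc to 2210407C18Rik (0.292), Prr36 (0.369) and Gm6166 (0.388), on few reads for both members.

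In the comparison of the organoid groups, which addresses the effect of conditioned medium, Muc5ac, Muc6 and Sox2 were at 0 in both groups and gave no value. Of the 4 other tested members, 1 was called higher in T-cM-titled libraries and 0 lower, beside 0.673% and 0.432% of all tested genes. The called member was Tff1, at 0.476, 4.0 and 1.47 CPM in T-cM-titled libraries 1, 2 and 3 and 0.275, 1.58 and 0.841 CPM in WT-cM-titled libraries 1, 2 and 3. The groups overlapped, but in each of the 3 pairs of the same number the T-cM-titled library was higher (log2 fold change 1.07, SE 0.33, edgeR adjusted p = 0.035 with the replicate number as a block). The call was lost without the block (adjusted p = 0.93), with limma voom (adjusted p = 0.15), without replicate 2 (adjusted p = 0.63) and without replicate 3 (adjusted p = 0.15). Pgc, at 0.264 to 0.339 CPM in T-cM-titled and 0.055 to 0.122 CPM in WT-cM-titled libraries, was the only member whose groups did not overlap, as for 5.12% of all tested genes, and did not pass the test on its 1 to 5 reads (log2 fold change 1.69, SE 0.87, edgeR adjusted p = 0.26). Tff2 (log2 fold change 0.86, SE 1.19) and Gkn1 (log2 fold change -0.55, SE 1.35) did not pass it either. Of the 25 tested genes on the other gastric lists, 1 was called higher (the pit cell gene Dpcr1) and 2 lower (Cldn18 and Aqp4), and which medium these belong to rests on the titles.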

How the data were processed

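RNA-seq libraries (poly-A, stranded kit, paired-end) of 6 organoid and 3 tumoroid samples were used. Per the labels and methods, the authors aligned reads with STAR to mm10 with Gencode annotation and deposited raw counts and TPM per gene. The counting tool, its strand setting and the gene lengths behind the deposited TPM are not given in the sources used here. Columns were matched to samples by the name in each sample's description.

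The 16208 genes that reached 1 TPM in any library were tested on the deposited counts with edgeR 4.0.16 (TMM, quasi-likelihood F test in its form before edgeR 4, Benjamini-Hochberg). The organoid groups were compared with the replicate number as a block. The deviations of equally numbered organoid libraries from their group means correlated at 0.375 to 0.556, and the study's own model holds a sample effect. Tumoroids were compared with the mean of both organoid groups without a block. Standard errors are the log2 fold change divided by the root of F. CPM uses TMM-scaled totals. limma 3.58.1 and DESeq2 1.42.0 gave alternatives. Orders and shares of levels between genes use TPM. Intervals and floors cover counting error only.

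The members and gene lists were chosen with earlier results of these data known. All 8 members are named, up to 4 genes of each list by the smallest p in the tumoroid comparison, Cdx1, Cdx2, Tff3, Muc2 and Gkn3, and the 3 genes closest to each member's pattern. Other genes were named after their values were seen: those that complete a small count, those too low to test or at 0, and the overlapping or neighbouring genes. Gene bounds are from Gencode vM21 (GRCm38), in which 50376 of 50600 gene identifiers were found. Promoter windows are RefSeq's. 1 gene was dropped from the marker lists and is not reported here. Of the lists of other cell types, only some genes are given singly.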

Additional observations from a re-analysis of the deposited data

How the results depend on the processing

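For tumoroids against organoids, the calls of Muc5ac, Muc6, Sox2 and Tff1 and their directions held in every alternative that gave a value for them, under other size factors, filters, tools, log2 TPM scales, the replicate block and each library left out. Muc5ac, Muc6 and Sox2 had no organoid read, so that leaving out an organoid library or changing the organoid control could not turn their direction. The filter over all 9 libraries was kept in the fits with a library left out. The number of genes called, 5363, was 4906 to 6533 over these, 4834 with the WT-cM-titled and 5057 with the T-cM-titled organoids alone as the control, and 8165 with no fold change threshold, and the number of members called went from 5 to 3 when filterByExpr dropped Muc6, Tff2, Gkn1 and Pgc. DESeq2 gave no adjusted p for Sox2. Gkn1 was called in 3 of 20 alternatives and Pgc in 1 of 20. Without 1 library, 5006 to 5368 genes and 4 to 6 members were called.

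Between the organoid groups the calls depended on the analysis. The 179 genes called became 104 with limma voom, 93 with DESeq2, 0 on either log2 TPM scale, 0 without the replicate block and 1634 with no fold change threshold, and 1 to 385 without 1 replicate. The 1 member called, Tff1, became 0 with limma voom, DESeq2, either log2 TPM scale or no replicate block, and 0 to 1 without 1 replicate. Tff2 reversed to -1.18 without replicate 2. The cause was not tested. Counts for the gene lists stayed within 1.5 times in 550 of 588 values. The replicate block over the 9 libraries, whose tumoroid numbers did not pair with those of the organoids (correlations from -0.0948 to 0.189), called 5409 genes; it lost the call of Tff2 (adjusted p = 0.069) and called Gkn1 (adjusted p = 0.048). Levels of 3 reads or fewer, as for Gkn2, are below what these depths can compare.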
